A study of Homo sapiens with 8 samples.

Results

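The genes described here encode 7 proteins known as readers of N6-methyladenosine (m6A), namely YTHDC1, YTHDF1, HNRNPA2B1, RBMX, IGF2BP2, FXR1 and FXR2. Every m6A peak assigned to one of these gene names was taken, which gave 12 peaks out of 10987 in the authors' deposited table. The peaks were made by sequencing fragments of poly(A) RNA pulled down with an m6A antibody. The cells were BCPAP, a cultured line that came from a papillary thyroid carcinoma. There were 8 libraries in 4 groups of 2: METTL3 knockdown immunoprecipitate, METTL3 knockdown input, control immunoprecipitate and control input. METTL3 is the catalytic subunit of the m6A methyltransferase. Each pair of knockdown libraries holds 1 titled sh1 and 1 titled sh3, and the table does not separate them. The other libraries are labelled control. Titles carry a letter, A for sh1 and 1 control pair and B for sh3 and the other control pair, and the labels do not say what the letter marks. The table gives each peak a log2 fold change of m6A enrichment with its p-value and its false discovery rate (FDR), all computed by the authors, and no value per library. No spread between libraries can therefore be set beside any value, the depth behind each peak is unknown, and sh1 cannot be told apart from sh3. The file does not say which condition is the denominator of the fold change. It was read here as knockdown over control, and "lower" and "higher" are meant in that sense. METTL3 had 0 peaks here, and the extent of its depletion was not analysed. Of 15 marker genes of thyroid, epithelial and other cells, 3 had a peak (PAX8, KRT8 and PECAM1), and a peak table gives no expression level with which to check the cell type.

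m6A is placed on nascent RNA by a complex built on METTL3 and METTL14 and is removed by demethylases. Its effects on an mRNA depend on reader proteins. YTH domain proteins bind the methylated base directly: YTHDC1 acts in the nucleus, in splicing and export, and YTHDF1 in the cytoplasm, where it has been linked to translation and decay. HNRNPA2B1 and RBMX are nuclear ribonucleoproteins of splicing, reported to reach RNA that a nearby m6A has unfolded. IGF2BP2 stabilises mRNAs that it binds, and FXR1 and FXR2 are paralogous RNA-binding proteins of the fragile X family. The peaks below lie on the transcripts of the readers themselves. They say nothing of what these proteins bound, and a peak's fold change is not the abundance of the transcript.

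Across the 7 genes, 5 peaks were lower after METTL3 knockdown, 1 was higher and 6 were not called at an FDR under 0.05. The lower peaks were those of IGF2BP2, FXR1, YTHDC1, RBMX and HNRNPA2B1, and the higher peak was that of YTHDF1. The called share was 6 of 12 reader peaks, against 17.1% over the whole of the authors' deposited table, where 10.6% of peaks were called lower and 6.52% higher. The genes and the list were chosen with results of this same table known, so these shares are given as a description. No gene had more than 1 called peak, and FXR2 had none. The changes were modest: the 6 called reader peaks had a median absolute log2 fold change of 0.27, against 0.454 over all called peaks of the authors' deposited table. Whether the deposited FDR covers the variation between libraries is not known.

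**Figure D1:**
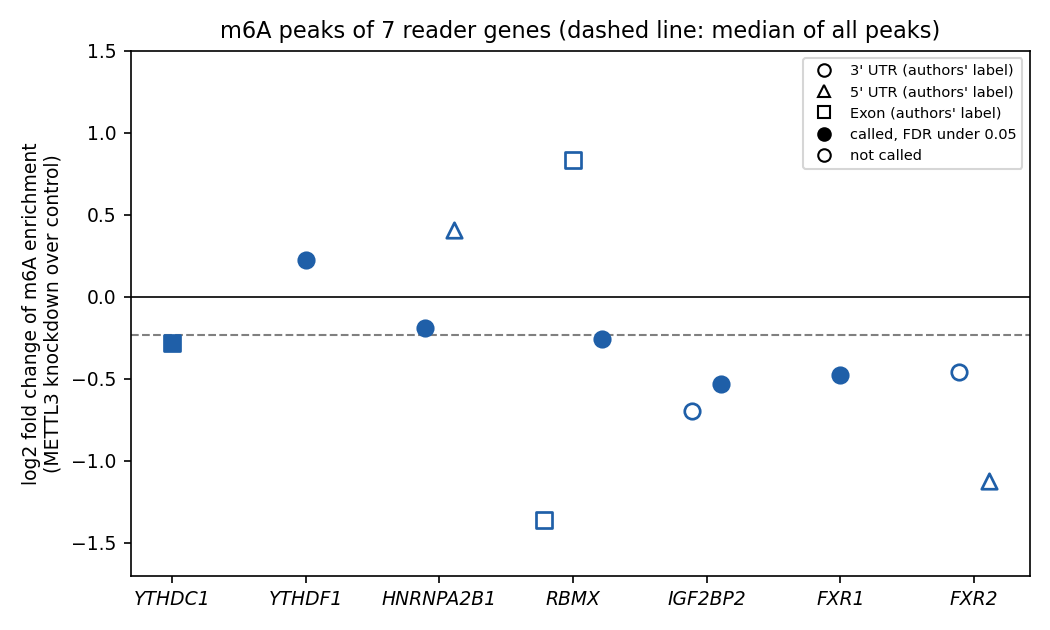
The log2 fold change of m6A enrichment (vertical axis, METTL3 knockdown over control) of each of the 12 peaks, by gene. Filled symbols are called at an FDR under 0.05, the symbol's shape gives the region in the authors' annotation and the dashed line is the median of all peaks at -0.235; 5 of the 6 filled symbols are below 0, and YTHDF1 at 0.225 is above it.

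YTHDC1, the nuclear YTH reader, had 1 peak, labelled as exon 3 of 17 (ENSG00000083896, chr4:68333330-68337679 on GRCh38, minus strand gene). In the authors' deposited table its log2 fold change was -0.281, or 0.823-fold, with p = 0.000676 and FDR 0.0129. The peak was thus lower in the knockdown. It began 12411 bases after the RefSeq start of the gene and covered 4350 bases of genome, introns included. Whether the value comes from exon 3 alone cannot be told, and the comparison with exon peaks rests on the label. Exon peaks as a whole had a positive median of 0.2305 in the authors' deposited table, so the YTHDC1 peak lay on the other side of 0 from the middle of its class. Of all exon peaks, 44.1% had a value at or below it, and 11.5% were called, beside 1 of the 3 reader peaks with that label.

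YTHDF1, the cytoplasmic YTH reader, also had 1 peak and was higher in the knockdown, at 0.225 or 1.17-fold (ENSG00000149658, chr20:63196597-63213913, p = 3.98e-14, FDR 1e-11 in the authors' deposited table). It was the 1 called reader peak that went up, where the authors' deposited table had 5.94% of 3' UTR peaks called higher and 15.9% lower. The peak carries the label 3' UTR, but its span of 17317 bases covers 83.6% of the genomic length of YTHDF1. It starts 2218 bases after the RefSeq start of the gene and stops 1168 bases before its end. The value therefore belongs to RNA fragments from an unknown number of exons and cannot be placed in the 3' UTR alone.

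HNRNPA2B1, a splicing ribonucleoprotein that also takes part in microRNA processing, had the smallest p of the reader peaks and the smallest change. Its 3' UTR peak was lower at -0.189, or 0.877-fold (ENSG00000122566, chr7:26192159-26196844, p = 3.98e-44, FDR 6.31e-41 in the authors' deposited table). It ranked 15 by p among all peaks of the table, while the change was as small or smaller in only 7.01% of called peaks, taken without sign. The span of 4686 bases covers 43.3% of the gene and stops 2232 bases before its RefSeq end. Whether the value comes from the 3' UTR alone cannot be told. Over the peaks labelled 3' UTR in the authors' deposited table, 59.3% had a value at or below it. On this scale the HNRNPA2B1 peak fell less than the typical peak with that label.

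A second peak assigned to HNRNPA2B1 was labelled 5' UTR and not called (chr7:26201222-26201401, 0.407, p = 0.403, FDR 0.557 in the authors' deposited table). This peak is outside the RefSeq bounds of HNRNPA2B1: its nearer edge lies 476 bases upstream of the first base of the gene, and its other edge 42 bases before the start of CBX3, a heterochromatin protein gene transcribed in the opposite direction. It overlaps a peak assigned to CBX3 (chr7:26201139-26201409), which the authors' deposited table gives at 0.343 with FDR 0.553. The table has no strand column, but its rows run in ascending stretches in which 88% of peaks with a known gene strand are on the strand of the majority. The HNRNPA2B1 row stands in a stretch with 30 peaks of plus strand genes and 4 of minus strand genes, although HNRNPA2B1 is a minus strand gene. The overlapping CBX3 row stands in a stretch with 12 of plus strand and 106 of minus strand genes, although CBX3 is a plus strand gene. By place and by row order, neither assignment to a gene is secure, and the value is not read as one of HNRNPA2B1 m6A.

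The sequence under this doubtful peak can be shown, since it lies inside the RefSeq window around the CBX3 start (GRCh38.p14). It was searched on both strands for DRACH, the m6A consensus, which reads A, G or T, then A or G, then AC, then A, C or T, and for the stronger core GGAC, whose matches are also DRACH matches when A, C or T follows. The 180 bases held 3 DRACH matches on the plus strand and 5 on the minus strand, and 1 GGAC, on the minus strand. DRACH is so short that 98.5% of 34943 promoter windows of the same length and place held it on either strand, and 72.2% held GGAC. The lines below show the densest plus strand stretch and the minus strand stretch with GGAC, with DRACH matches in capitals. In the first line, at chr7:26201281-26201310, 2 matches share a T. The second line is at chr7:26201328-26201357 and reads the minus strand.
HNRNPA2B1 or CBX3 peak, plus strand: cgcgtctgtgGAACTGACCcctggtgtaca
HNRNPA2B1 or CBX3 peak, minus strand: ttaaAAACTagtacccctttgGGACCactt

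RBMX, the X-linked ribonucleoprotein also called hnRNP G, had 3 peaks, of which only 1 lies in the gene. This 3' UTR peak was lower in the knockdown at -0.259, or 0.836-fold (ENSG00000147274, chrX:136873951-136874339, p = 1.48e-10, FDR 2.4e-08 in the authors' deposited table). It is 4759 bases from the RefSeq end of the gene and is tied to another transcript (ENST00000496459) than the other RBMX rows. Whether its label holds for other isoforms was not tested. Over the 3' UTR peaks of the authors' deposited table, 53.4% had a value at or below it, and its fall was close to the middle of that class. The other 2 RBMX peaks are labelled as exon 1 of 1 of a different gene identifier (ENSG00000225400) and lie 20919 bases or more beyond the end of RBMX, inside the RefSeq pseudogene RAB28P5. They are 30 bases apart and had opposite signs, -1.36 (chrX:136847886-136848004, FDR 0.543) and 0.837 (chrX:136848034-136848273, FDR 0.415) in the authors' deposited table. The row at -1.36 stands in a stretch of 44 plus strand and 7 minus strand genes, and the row at 0.837 in a stretch of 7 and 96. Neither was called, although both are among the 3 largest absolute values of the 12 peaks.

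**Figure D2:**
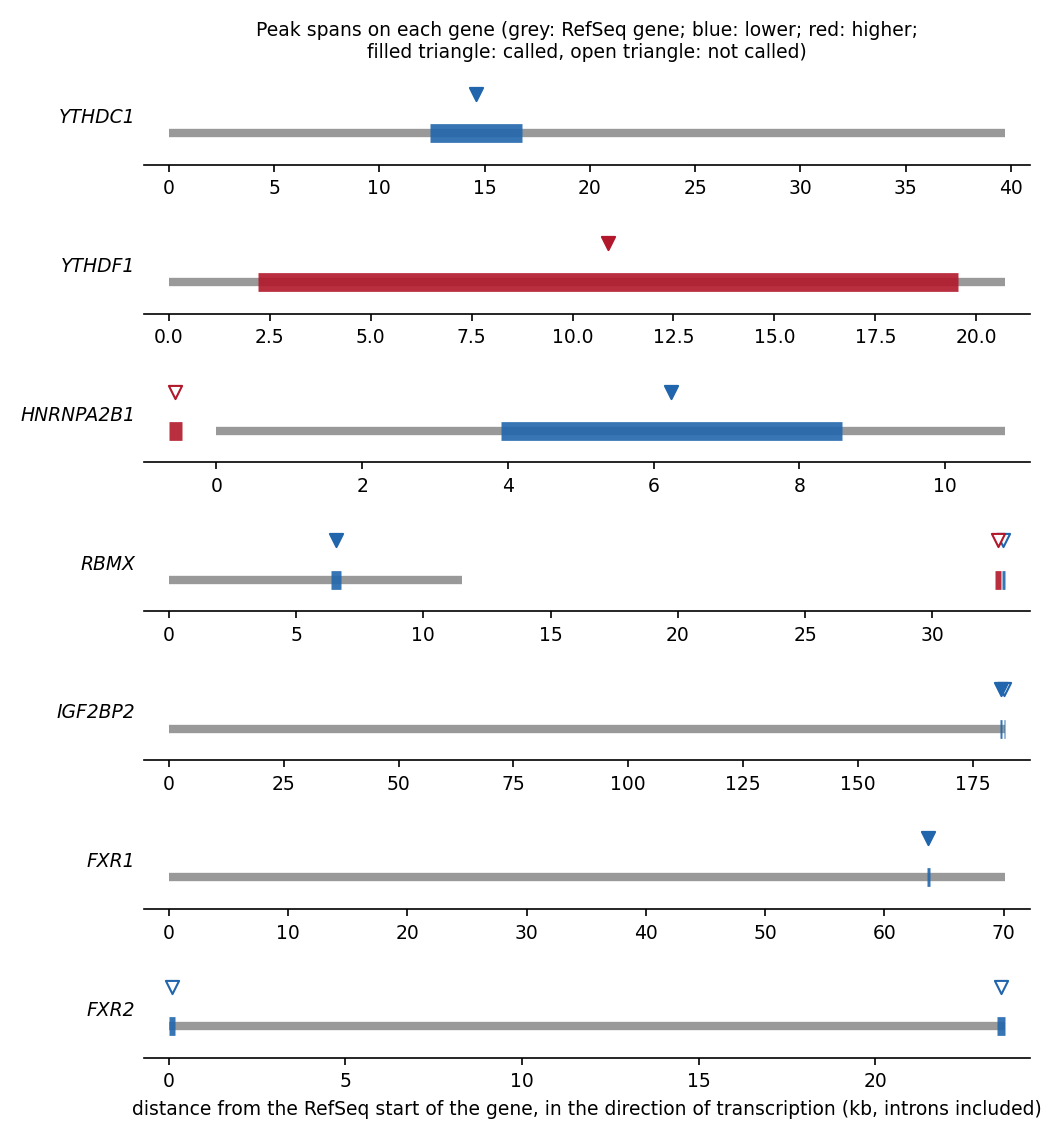
The span of each peak drawn on its gene, as distance from the RefSeq start in the direction of transcription (horizontal axis, kb, introns included, a scale of its own for each gene). Blue is lower and red higher in the knockdown, and filled triangles are called; 3 open triangles, 1 of HNRNPA2B1 and 2 of RBMX, lie off the grey bar of the RefSeq gene, while the YTHDF1 span covers 83.6% of its gene.

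IGF2BP2, which binds and stabilises mRNAs, had the largest called decrease of the set. Its 3' UTR peak with the smaller p was lower at -0.531, or 0.692-fold (ENSG00000073792, chr3:185643729-185644208, p = 3.89e-09, FDR 4.9e-07 in the authors' deposited table). A nearby 3' UTR peak (chr3:185643160-185643310) was not called, with -0.695, p = 0.178 and FDR 0.423 in the authors' deposited table. The pair is separated by 418 bases and sits in the last 1079 bases of a gene of 181913 bases, the second peak ending 30 bases before the RefSeq end. Both values lie on the same side of 0, and 31.4% and 22.6% of 3' UTR peaks in the authors' deposited table had values at or below them.

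FXR1 and FXR2 are paralogs and share 1 KEGG orthology entry in the table. The single FXR1 peak, in the 3' UTR, was lower at -0.474, or 0.72-fold (ENSG00000114416, chr3:180976217-180976457, p = 0.000525, FDR 0.011 in the authors' deposited table). It covers 241 bases and ends 6296 bases before the RefSeq end of the gene. The 3' UTR peak of FXR2 had nearly the same value, -0.457 or 0.728-fold (ENSG00000129245, chr17:7591230-7591439, p = 0.00427, FDR 0.0501 in the authors' deposited table), and it reaches the last base of the gene. Whether the 2 values differ was not tested, since the table gives no error for either.

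FXR2 falls on the threshold. Its FDR was deposited as a log10 value of -1.3, which after rounding stands for anything between 0.0495 and 0.0507, and 20 peaks of the table share that value. It was therefore not called here, and its side of 0.05 cannot be read from the deposited digits. The call also depends on how the FDR was computed. Recomputed from the deposited p-values by Benjamini-Hochberg, the value was 0.0247, beside the deposited 0.0501. The gap is not one of FXR2 alone, since the recomputed value was below the deposited one for every reader peak. For FXR1 it was 0.00549 beside 0.011, and for YTHDC1 0.00652 beside 0.0129. The reason for this gap is not known. A second FXR2 peak, labelled 5' UTR, was not called (chr17:7614718-7614897, -1.12 or 0.46-fold, p = 0.0275, FDR 0.164 in the authors' deposited table). This 180-base peak begins exactly at the RefSeq start of FXR2 and also overlaps SHBG, a gene on the opposite strand. FXR2 was the 1 reader with a peak at both ends of its transcription unit, and both values were below 0. The 30 bases around this start, where the 5' peak begins, are shown with the first 15 transcribed bases in capitals (chr17:7614883-7614912, minus strand, RefSeq, GRCh38.p14). The first 50 transcribed bases held 0 DRACH matches on either strand, and the rest of the peak was not searched. Of 34943 gene starts, 76% held at least 1 match on either strand and 49.7% on the transcribed sense strand, so its absence is common.
FXR2 start: gcccggtgcgcctgcGCAGTAGGCGGCGGT

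Taken by region, 7 of the 12 peaks from 6 of the 7 genes were labelled 3' UTR, and 5 of these 7 were called, 4 lower and 1 higher, against 21.8% of all 3' UTR peaks. Of the 2 peaks labelled 5' UTR 0 were called, against 16.8% of all such peaks. The 7 peaks labelled 3' UTR had a median of -0.457, beside -0.296 for all 3' UTR peaks in the authors' deposited table. By place, 9 peaks lie within the RefSeq bounds of their gene, 7 of them labelled 3' UTR, a class with a negative median. Of these 9, 8 had a negative value, beside 55.3% of all peaks. The 3 peaks outside these bounds were all among the 6 that were not called. Reader peaks that were not called had the larger median absolute log2 fold change, 0.766 against 0.27 for the called ones. The ranges overlapped, at 0.407 to 1.36 for peaks not called and 0.189 to 0.531 for called peaks. The same order held over the authors' deposited table, with a median absolute value of 0.713 for peaks not called and 0.454 for called peaks.

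The size and the p-value gave different orders among the called readers. By p-value the order was HNRNPA2B1, YTHDF1, RBMX, IGF2BP2, FXR1 and YTHDC1. By absolute fold change it was IGF2BP2, FXR1, YTHDC1, RBMX, YTHDF1 and HNRNPA2B1. IGF2BP2 and FXR1 exceeded 58.2% and 52.2% of called peaks in absolute size or equalled them, and the other 4 only 21.2% or less. How many reads lie behind each peak was not analysed here.

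**Figure D3:**
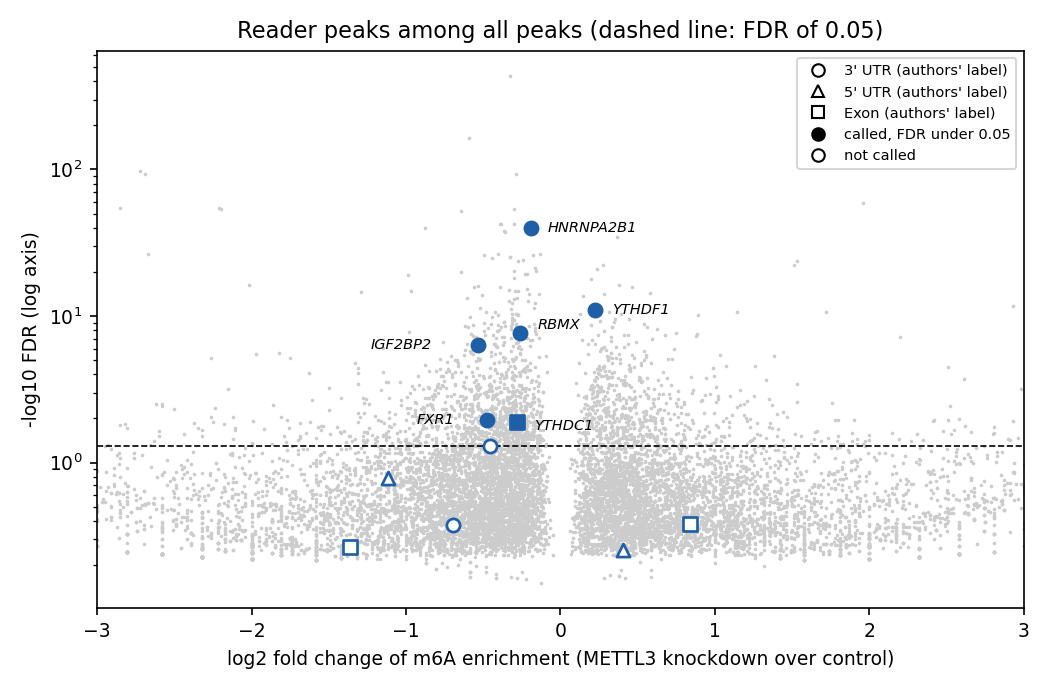
Each peak's log2 fold change (horizontal axis, METTL3 knockdown over control) against the -log10 of its FDR (vertical axis, logarithmic), with all peaks in grey and the 12 reader peaks in blue; 275 grey peaks lie beyond an absolute value of 3 and are not drawn. HNRNPA2B1 is highest at a change of -0.189, and the open FXR2 circle touches the dashed FDR line.

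The median of all peaks in the authors' deposited table was -0.235, but the shift was uneven: 55.3% of peaks were negative, and the regions had medians of -0.296 (3' UTR), -0.1385 (5' UTR) and 0.2305 (exon). With the median of all peaks subtracted, which moves every value by the same amount and makes no new test, IGF2BP2 had -0.296 and FXR1 -0.239, and the FXR2 peaks had -0.222 and -0.885. YTHDC1 and RBMX came close to 0, at -0.046 and -0.024. HNRNPA2B1 turned to 0.046, and YTHDF1 had 0.46. Relative to the median of peaks with the same region label, HNRNPA2B1 and RBMX were above 0, at 0.107 and 0.037, and YTHDC1 was farther below it, at -0.51. The higher YTHDF1 peak was farther from the median of all peaks than any called decrease among the readers.

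Other genes of the m6A pathway were counted with the peak of smallest p standing for each gene, by which 22.3% of 7081 named genes of the authors' deposited table were called, 14% lower and 8.26% higher. By this count 5 of the 7 readers were lower, 1 higher and 1 not called. Of 12 writers and cofactors, 5 had peaks, and 1 of these was higher and 4 were not called. The 1 called writer was RBM15, an RNA-binding subunit of the methyltransferase complex, at 0.44 in a 5' UTR peak of the authors' deposited table (FDR 3.39e-07). The other 2 RBM15 peaks had -1.61 and -0.563 in the authors' deposited table and were not called. Of 2 demethylases, FTO had 2 peaks, and neither was called. Of 15 further proteins reported to bind m6A RNA, 2 had peaks and 1 was called. This was G3BP1, a stress granule protein, lower at -0.345 in its 3' UTR (chr5:151811017-151811347, FDR 0.0257 in the authors' deposited table). G3BP1 had -0.11 once the median of all peaks was subtracted. The other gene of this list with peaks was FMR1, at -0.448 in both an exon and a 3' UTR peak (FDR 0.0617 and 0.0708 in the authors' deposited table). Neither FMR1 peak was called. Their value was near those of the 3' UTR peaks of FXR1 (-0.474) and FXR2 (-0.457).

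Among 19 genes of mRNA decay, export, splicing and microRNA processing listed as partners or effectors of readers, 7 had peaks, of which 1 was lower, 2 higher and 4 not called. PAN2 and PAN3, the catalytic and adaptor subunits of a poly(A) deadenylase, were both higher in their 3' UTRs. PAN3 had 1.05 (chr13:28293418-28293957, FDR 0.0117 in the authors' deposited table). PAN2 had called values of 1.03 (chr12:56317006-56317813, FDR 3.8e-06) and 0.933 (chr12:56317002-56317541, FDR 0.00132) in the authors' deposited table. The called PAN2 spans overlap and are not separate places, and the remaining PAN2 peak was not called (2, FDR 0.543 in the authors' deposited table). MATR3, a nuclear matrix RNA-binding protein, was lower in 3 called exon peaks of the authors' deposited table, at -0.151 (FDR 0.0309), -0.152 (FDR 0.0302) and -0.152 (FDR 0.0355), and its 4 peaks form overlapping pairs. With the median of all peaks subtracted, all 4 MATR3 values were positive, the called ones at 0.084, 0.083 and 0.083. All 4 are labelled exon, however, and lie below the exon median of 0.2305, so their side depends on the median used. The called peaks of PAN2 and PAN3 were larger than any called reader peak.

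**Figure D4:**
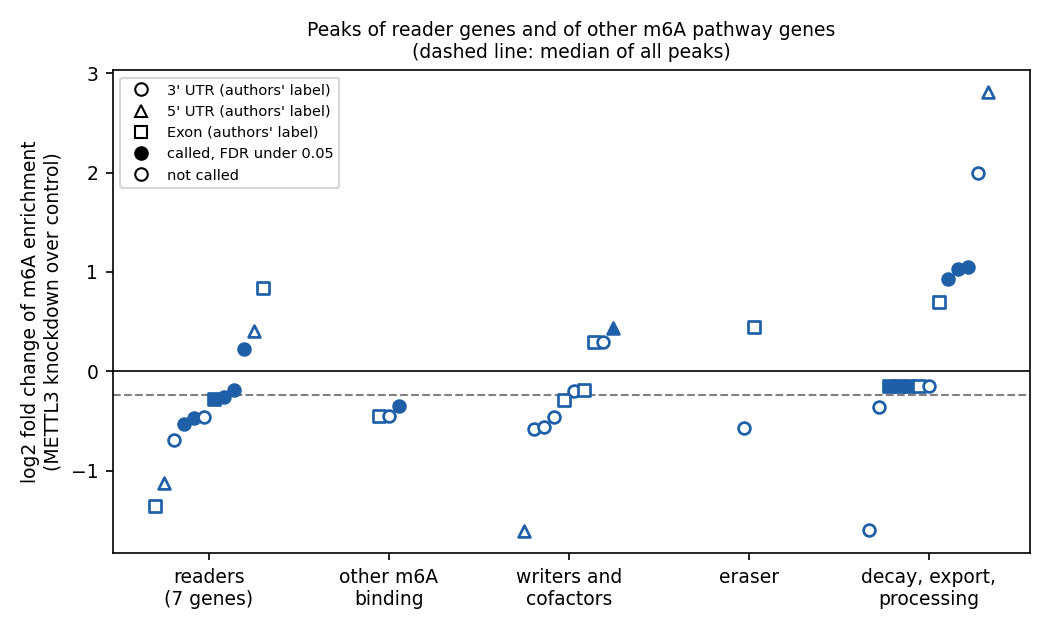
The log2 fold change of m6A enrichment (vertical axis, METTL3 knockdown over control) of every peak of the readers and of 4 other groups of m6A pathway genes, in ascending order within a group; filled symbols are called and the dashed line is the median of all peaks at -0.235. The 3 filled circles near 1 in the last group are the called PAN2 and PAN3 peaks, and the filled squares just below 0 are those of MATR3.

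The annotation terms in the table gave 1 further description. It is not independent of the choice of genes, since these were chosen as m6A readers. Terms were used here for 5 of the 7 genes. The term for binding N6-methyladenosine-containing RNA was held by YTHDC1, YTHDF1 and HNRNPA2B1 and by no other gene whose terms were used. RBMX and IGF2BP2 did not carry it. Messenger RNA binding was annotated to 4 of the 5, in a class of 58 genes with 108 peaks, of which 28 (25.9%) were lower and 7 (6.48%) higher in the authors' deposited table, beside 10.6% lower and 6.52% higher over all peaks. The class holds 7 of the reader peaks, which are counted in its shares. It was drawn only from peaks whose terms were used, while the shares beside it are over all peaks. The same holds for the splicing terms that were counted. Messenger RNA splicing by the spliceosome (93 genes, 168 peaks, 6 of them reader peaks) had 22% lower and 7.14% higher. Negative regulation of that splicing (12 genes, 22 peaks, 5 of them reader peaks) had 18.2% lower and 4.55% higher. A lower share above that of all peaks was thus not particular to messenger RNA binding.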

How the data were processed

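The 8 libraries of m6A immunoprecipitation sequencing were put into groups by their labels for genotype and antibody. Per the submitters' processing notes, HISAT2, StringTie, edgeR, HOMER, ChIPseeker and fastp were used with build GRCh38 (hg38), with no role given for any of them. How differential peaks were called, and whether libraries were pooled, is not given in the sources used here. Per the file headers, the p-value and the log2 fold change of each peak are the authors' deposited values. The FDR was deposited as a score on the log10 scale and was raised to the linear scale. Peaks of the 7 gene names were extracted, called at an FDR under 0.05, and placed against gene bounds, strands and promoter windows of RefSeq (GRCh38.p14); all 7 names matched. No test of its own was made, since the deposited table holds no value per library, and depth is unknown. Genes with several peaks were counted by the peak with the smallest p. The readers were named in full; up to 6 called genes per pathway list could be named. PAX8, KRT8, PECAM1, FTO, FMR1, CBX3, SHBG and RAB28P5 were named outside this rule or for overlap. The members and lists were chosen with earlier results of these data known. Exonic motif content and protein identity were planned but could not be computed from the references used here. Alternatives were other thresholds, recomputed Benjamini-Hochberg values (checked on simulated p-values), subtraction of medians and other choices of peak per gene. Tools were matplotlib 3.10.9, scipy 1.17.1, numpy 2.4.6 and pandas 2.3.3 under Python 3.11.15.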

Additional observations from a re-analysis of the deposited data

How the results depend on the processing

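No paired analysis was possible because the deposited table holds no value per library, although the titles set sh1 and sh3 each beside a control by letter, and for the same reason no library could be left out. The 5 lower reader peaks became 3 at an FDR under 0.01, where FXR1 and YTHDC1 were lost, and 6 at an FDR under 0.1, at p under 0.01 and with recomputed Benjamini-Hochberg values, each time by the addition of the FXR2 3' UTR peak. A minimum absolute log2 fold change of 0.2 left 4 lower and 1 higher, without HNRNPA2B1. Subtracting the median of all peaks left 4 of the called values negative and 2 positive, since HNRNPA2B1 (-0.189) became 0.046; this follows from the size of the shift, and the deposited FDR does not test the shifted value. Subtracting the median of each region instead turned HNRNPA2B1 to 0.107 and RBMX to 0.037. With the peak of largest absolute change standing for each gene, 2 readers were lower, since the larger peaks of HNRNPA2B1, RBMX and IGF2BP2 were not called. Those of HNRNPA2B1 and RBMX lie outside the RefSeq bounds of their gene. With the median of each gene's peaks, 4 were lower and 2 higher, HNRNPA2B1 having a median of 0.109. That median includes the doubtful peak at 0.407, which is not read as one of HNRNPA2B1 m6A, so it does not make HNRNPA2B1 a higher reader. Leaving out the 3 peaks outside RefSeq bounds, an alternative chosen after seeing the data, left 5 lower and 1 higher. All 12 peaks stayed separate places under both overlap rules. The direction of the table as a whole rests on reading the fold change as knockdown over control.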
